A study of Arabidopsis thaliana with 24 samples.

Results

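Chloroplasts keep a small genome of their own, and the genes described here are those of its measured genes that do not encode parts of the photosynthetic machinery. They were chosen by annotation alone: probe sets naming exactly 1 gene, with a chloroplast locus tag and a symbol that does not start with psa, psb, pet, atp, ndh or rbcL. This gave 26 genes, each with 1 probe set, of 13356 genes named by single-gene probe sets on the array; 43 further chloroplast genes, those of photosynthesis, were measured, out of 84 protein-coding loci that the gene table lists for this genome. The 26 genes encode 8 proteins of the small ribosomal subunit (rps2, rps3, rps4, rps14, rps15, rps16, rps18 and rps19), 7 of the large subunit (rpl14, rpl16, rpl20, rpl22, rpl32, rpl33 and rpl36), and 4 subunits of RNA polymerase (rpoA, rpoB, rpoC1 and rpoC2). The other 7 are matK, ycf3, ycf4, cemA, ccsA, accD and clpP. A further 7 probe sets, each naming both copies of a chloroplast gene outside photosynthesis, were left out and are given at the end.

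The chloroplast genome is read by a polymerase of bacterial type whose core subunits it encodes itself, with sigma factors supplied by the nucleus, and by a phage-type polymerase that is wholly nuclear. Its genes are mostly transcribed as long precursors covering several genes, which are then cut, spliced and trimmed with the help of nuclear proteins. The resulting mRNAs are translated on ribosomes of bacterial type, whose proteins come partly from the chloroplast and partly from the nucleus. A probe set reports every transcript that carries its stretch of sequence, whether processed or not. Plastid mRNAs mostly lack stable poly(A) tails, and how RNA was primed for labelling is not given in the sources used here.

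Gene expression was measured in roots and in shoots of Arabidopsis thaliana Col-0, the common laboratory accession, after 0.5, 1, 3, 6, 12 and 24 h in medium with 300 mM mannitol, a sugar alcohol that lowers the water available to the plant. All plants carried this genotype and received mannitol, starting at day 16 and 3 h into the light of a 16 h day. The 1 and 24 h plants were thus sampled at close to the same clock time as the 0.5 h plants, and the 3, 6 and 12 h plants were not. Each tissue and time had 2 arrays, 24 in all, and each later time was set against 0.5 h in the same tissue, since untreated plants were not analysed here. Whether the 2 replicates were grown separately is not stated in the labels. A p-value here rests on the spread between replicates pooled over all 12 groups, and these replicates may differ only technically.

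All 26 genes passed the filter on low signal. Values are linear MAS5 signals in array units, and changes are differences of log2(signal + 7.72), which shrinks the changes of weak probe sets. Replicate arrays correlated with Pearson's r of 0.979 to 0.986 across probe sets, and the median signal per array lay between 31.4 and 48.3. Of 13 markers of green tissue listed, 6 were named on the array, and their summed signal was 308 to 964 in roots at 24 h and 0.5 h, against 13548 to 27893 in shoots at the same times. Of 7 root markers 2 were named, and their sum was 3092 to 3762 in roots against 362 to 1042 in shoots. No gene level can be set against that of another gene, because probe sets differ in how strongly they bind.

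In shoots nearly all of these genes were lower after 24 h in mannitol than at 0.5 h. The change passed the threshold, an adjusted p of 0.05 from limma, in 24 of 26 genes, all of them lower, against 33.2% of all probe sets tested. The median change was -1.07 on the log2 scale, against -0.12 over all 16814 probe sets, and the median gene kept 47.4% of its signal at 0.5 h. In 14 genes the called change was at least 2-fold. Both 24 h arrays lay below both 0.5 h arrays in 25 of 26 genes, against 44.0% of all probe sets. With each array centred on its own median, the median change was -0.88 and 20 genes were called; all probe sets then had 4297 lower and 5347 higher calls, where the deposited scaling gave 5575 lower and 4279 higher. These are extracts of whole tissue, in which fewer cells or plastids and less RNA per cell cannot be told apart. The 7 probe sets left out because they name both copies of a gene had a median of -0.27, with 3 called lower and 1 higher.

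More genes were called at each later time. Against 0.5 h, 0 genes were called at 1 h by limma, with 1 at an unadjusted p under 0.05 and 4.54% of all probe sets called lower. At 3 h 4 genes were called lower (rps16, rpoC2, rps18 and rpl16), against 18.7% of all probe sets. In the limma fit with quantile normalization rpoC2 and rpl16 lost their call (adjusted p = 0.11 and 0.064). The call of rpoC2 was also lost with arrays centred on their medians (adjusted p = 0.064), with no pseudocount or no filter on low signal (adjusted p = 0.065 in each) and with no variance trend (adjusted p = 0.061). At 6 h the count was 17, against 25.4%, and at 12 h it was 22, against 27.4%. The medians of the 26 genes were -0.07, -0.20, -0.57, -0.88 and -1.07 at 1, 3, 6, 12 and 24 h, where the medians of all probe sets were 0.03, -0.06, -0.06, -0.05 and -0.12. No gene was called higher at 1, 3, 6, 12 or 24 h by limma, with 1 higher at an unadjusted p under 0.05 at 1 h and 0 later, where 4.26%, 16.9%, 22.8%, 25.6% and 25.4% of all probe sets were. At 3 and 6 h the counts moved when some single arrays were left out, a fit with 1 array in a group. The median of the 26 genes then ranged from -0.32 to -0.19 at 3 h and from -0.64 to -0.47 at 6 h.

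Each time was also set against the one before, a comparison added later. Between 1 and 3 h only rps16 passed, at -0.82 ± 0.16 (SE; limma, adjusted p = 7.0e-04), against 16.6% of probe sets called lower. Between 3 and 6 h rps18, matK, rpl33 and rps16 passed, against 7.08%, with changes of -0.94, -0.66, -0.66 and -0.50. Between 6 and 12 h the 5 genes called were rps3, rpl16, rpl22, rpl36 and ycf3, against 6.42%, with changes of -0.62, -0.57, -0.51, -0.49 and -0.48. Between 12 and 24 h limma called 0 genes, with 2 at an unadjusted p under 0.05 and 9.72% of probe sets called lower. The means of rps18 were 508, 261, 304 and 267 at 3, 6, 12 and 24 h, and those of rps3 were 1901, 1773, 1157 and 903.

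**Figure D1:**
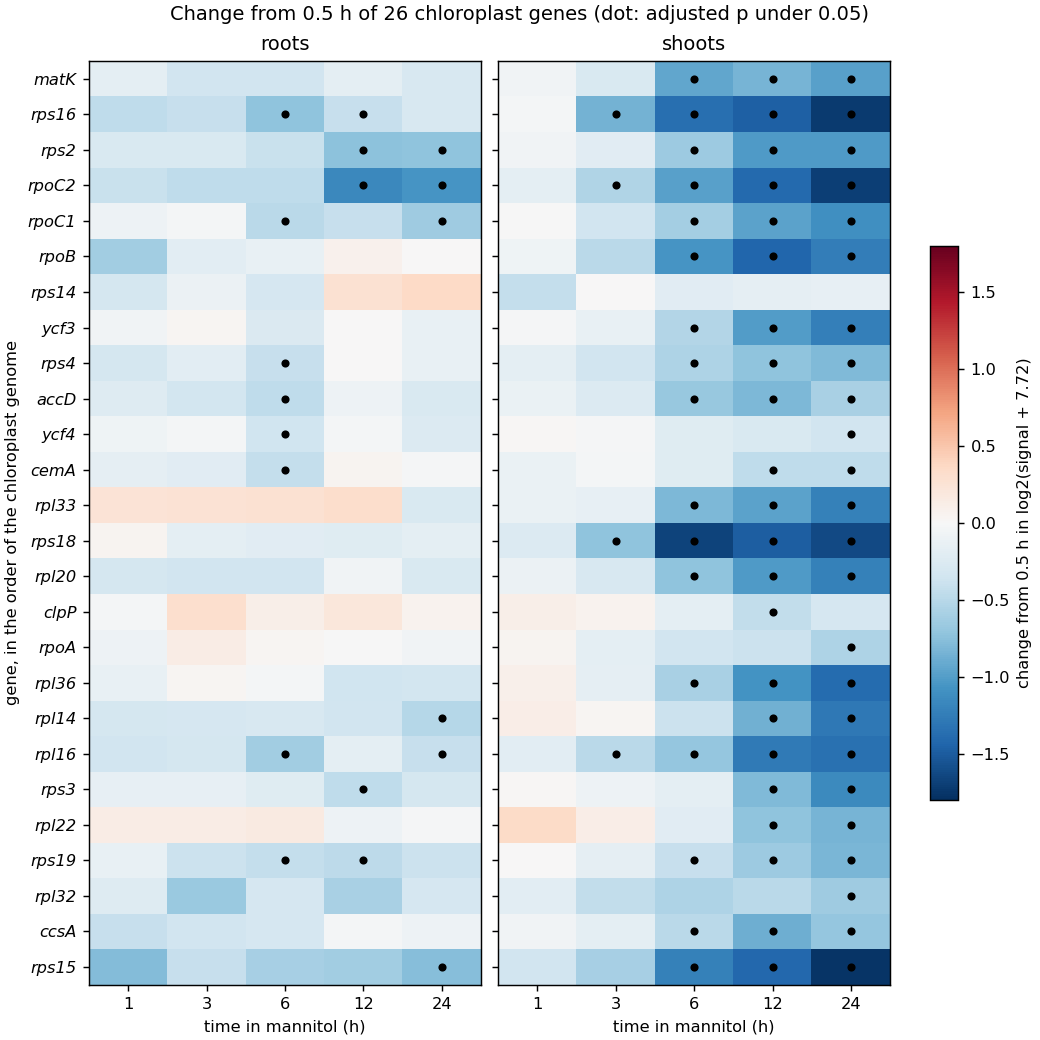
Change of each gene from 0.5 h, in log2(signal + 7.72), at 1 to 24 h in mannitol (columns, evenly spaced) in roots and shoots, with genes (rows) in the order of the chloroplast genome; each cell is the difference of 2-array means and a dot marks an adjusted p under 0.05. Shoots darken from 3 h on, with 24 of 26 dots at 24 h, while roots stay pale, with 6.

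All 4 polymerase genes fell in shoots by 24 h, with a median change of -1.18. These are the core subunits on which transcription of most photosynthesis genes depends. The largest change was that of rpoC2, which encodes the second beta-prime subunit: its signals were 353 and 362 at 24 h, against 1194 and 1160 at 0.5 h. This left 30.4% of the earlier mean, a change of -1.70 ± 0.21 (SE; limma, adjusted p = 1.8e-06), and replicates lay far closer together than the times did. The series of means for rpoC2 ran 1177, 1052, 812, 595, 441 and 358 over the 6 times, lower at each time than at the one before.

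The changes of rpoB and rpoC1 were smaller. For rpoB, the beta subunit, signals were 146 and 156 at 24 h, against 396 and 343 at 0.5 h (-1.24 ± 0.19), and for rpoC1, the other beta-prime subunit, 675 and 673 against 1550 and 1391 (-1.11 ± 0.16). The smallest called change in this class was that of rpoA, the alpha subunit, which lies elsewhere, in a cluster with ribosomal protein genes. Its arrays read 1373 and 1097 at 24 h, against 1632 and 2007 at 0.5 h, which do not overlap, and its change was -0.56 ± 0.17 (limma, adjusted p = 0.00797). With each array centred on its median, rpoA was at -0.37 with an adjusted p of 0.087, and it missed the threshold without the second 0.5 h array (-0.41) or without the second 24 h array (-0.40).

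Of the 8 genes for proteins of the small ribosomal subunit 7 fell in shoots by 24 h, with a median over the 8 of -1.09, and this class held both the largest change of the 26 genes and the smallest. The largest was that of rps15, whose signals were 143 and 114 at 24 h, against 483 and 418 at 0.5 h. Its mean at 24 h was 28.5% of that at 0.5 h, a change of -1.76 ± 0.24 (SE; limma, adjusted p = 8.1e-06). Close behind were rps16, with 90.2 and 93.9 at 24 h against 345 and 299 at 0.5 h (-1.72 ± 0.16), and rps18, with 265 and 269 against 806 and 880 (-1.63 ± 0.18). In all of these the 24 h arrays were well below the 0.5 h arrays.

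The remaining small-subunit genes changed less. Changes at 24 h were -1.15 for rps3, -1.02 for rps2, -0.82 for rps19 and -0.80 for rps4, the smallest called change in the class. Signals of rps4, a protein that in bacteria binds ribosomal RNA early in assembly, were 2190 and 2184 at 24 h, against 4055 and 3565 at 0.5 h, or 57.4% of the earlier mean. The exception was rps14, with 111 and 126 at 24 h against 162 and 106 at 0.5 h. Its groups overlapped, and its change of -0.15 ± 0.26 did not pass (limma, adjusted p = 0.652); the sign turned to 0.04 with arrays centred on their medians and to 0.14 without the first 0.5 h array.

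All 7 genes for proteins of the large ribosomal subunit fell in shoots by 24 h, with a median of -1.22 and a range from -1.39 to -0.64. The largest change was that of rpl36, with 1092 and 1282 at 24 h against 3079 and 3147 at 0.5 h, or 38.1% of the earlier mean (-1.39 ± 0.14 SE; limma, adjusted p = 2.4e-07). Its level was near the start until 3 h, with means of 3113, 3318, 2787, 2080, 1479 and 1187 over the 6 times. Changes at 24 h were -1.34 for rpl16, -1.28 for rpl14, -1.22 for rpl20, -1.21 for rpl33 and -0.83 for rpl22. The smallest was that of rpl32, with 844 and 835 at 24 h against 1221 and 1414 at 0.5 h (-0.64 ± 0.25; adjusted p = 0.0387). The groups of rpl32 did not overlap, but its call was lost with quantile normalization (-0.55, adjusted p = 0.089), with arrays centred on their medians (-0.46, adjusted p = 0.13), with no filter on low signal (adjusted p = 0.052) and when any 1 of the 4 arrays was left out.

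Among the 7 genes with other roles 6 fell in shoots by 24 h, with a median of -0.58, smaller in size than the medians of the ribosomal and polymerase classes; the difference between classes was not tested. The largest changes were those of ycf3, which encodes an assembly factor of photosystem I, and matK, the maturase that helps splice introns of chloroplast transcripts. Signals of ycf3 were 765 and 774 at 24 h, against 2040 and 1621 at 0.5 h (-1.23 ± 0.15 SE; limma, adjusted p = 1.4e-06). Those of matK were 956 and 1014 at 24 h, against 2032 and 1875 at 0.5 h (-0.98 ± 0.21; adjusted p = 5.5e-04). Neither gene had overlapping groups.

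The chloroplast also makes 1 subunit each of an enzyme of lipid synthesis and of a protease. The gene accD, for the carboxyltransferase subunit of the acetyl-CoA carboxylase that starts fatty acid synthesis, had 890 and 896 at 24 h, against 1334 and 1352 at 0.5 h (-0.58 ± 0.14; limma, adjusted p = 0.00204). Its lowest mean was at 12 h, with 776. For clpP, the proteolytic subunit of the Clp protease, signals were 2794 and 2759 at 24 h, against 3328 and 3518 at 0.5 h. The arrays of clpP did not overlap, but the change of -0.30 ± 0.13 did not pass at 24 h (adjusted p = 0.0586), while that of -0.44 at 12 h did (adjusted p = 0.00998). With shoots fitted alone the 24 h change passed as well (limma, adjusted p = 0.047). The 12 h call was lost with quantile normalization (-0.07, limma, adjusted p = 0.71), without the second 0.5 h array (adjusted p = 0.059) and without the first 12 h array (adjusted p = 0.057).

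Of the other genes, ccsA, which is needed to attach haem to c-type cytochromes, had 1660 and 1384 at 24 h against 2337 and 2580 at 0.5 h (-0.69 ± 0.18; limma, adjusted p = 0.00294). The envelope protein gene cemA, at -0.46 ± 0.16, and ycf4, a further assembly factor of photosystem I, at -0.35 ± 0.13, had the smallest called changes of all. Signals of ycf4 were 2350 and 2349 at 24 h, against 2903 and 3104 at 0.5 h, so that 78.2% of the mean remained. Both calls were lost with quantile normalization (cemA -0.25, ycf4 -0.19) and with arrays centred on their medians (cemA -0.28, ycf4 -0.17). Without the second 0.5 h array (cemA -0.41, ycf4 -0.30) or the first 24 h array (cemA -0.37, ycf4 -0.35) neither passed, and without the second 24 h array ycf4 did not (-0.35).

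**Figure D2:**
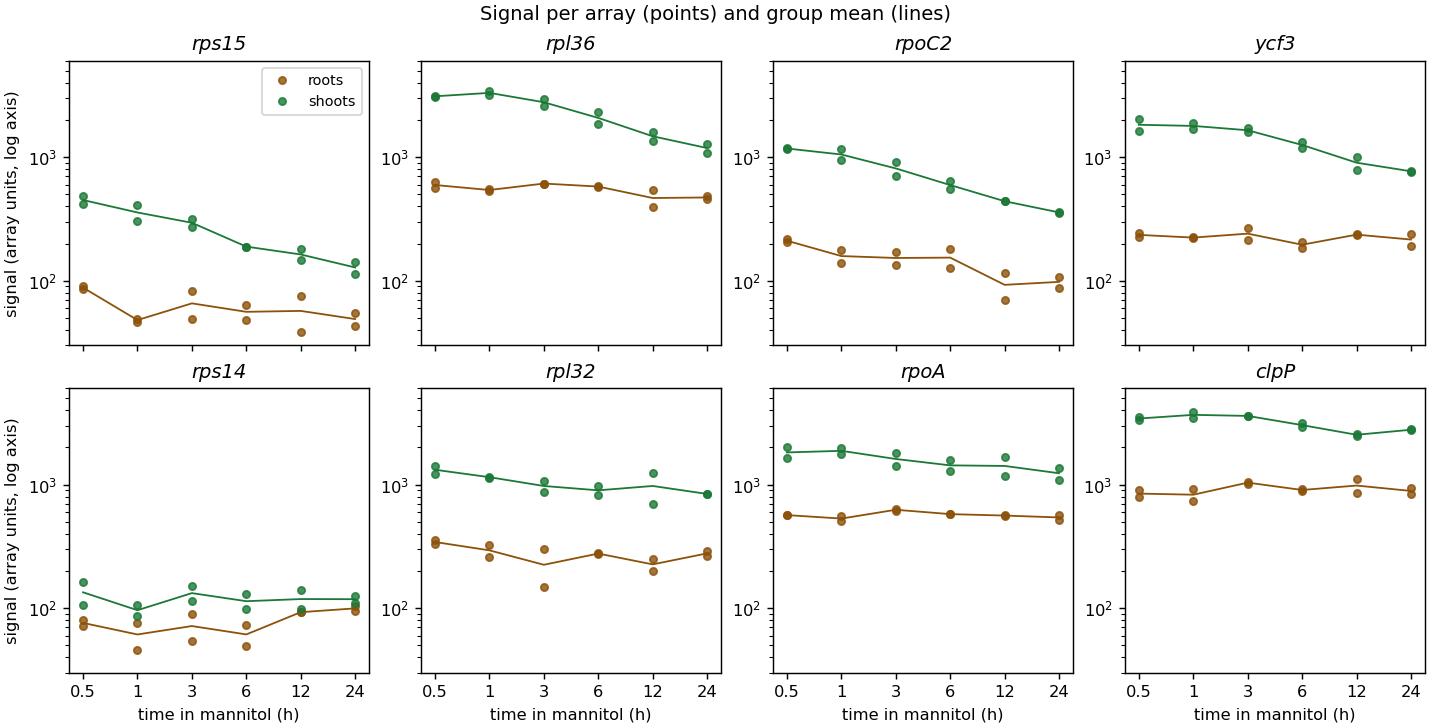
Signal (array units, log axis) of 8 genes over time in mannitol (h, evenly spaced) in roots (brown) and shoots (green); points are single arrays and lines join the 2-array means. The upper row holds the largest called change of each class at 24 h in shoots (rps15, rpl36, rpoC2 and ycf3), the lower row genes with small changes or none called (rps14, rpl32, rpoA and clpP).

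A sign of RNA quality moved with time in shoots. The ratio of the 3′ to the 5′ control probe set of the first actin design was 6.77, 7.86, 10.3, 12.1, 12.8 and 16.7 over the 6 times in shoots, and between 11.1 and 12.3 in roots. The ratio of the second actin design was 2.57 at 24 h against 2.42 at 0.5 h in shoots, and that of the GAPDH controls 1.57 against 1.35. Markers of both tissues were also lower in shoots at 24 h, where 33.2% of all probe sets were called lower. For green tissue these were 5 of 6 (summed signal 13548 to 16745 at 24 h, against 24484 to 27893 at 0.5 h). For roots it was 1 of 2, PYK10, with shoot means of 947, 459 and 361 at 0.5, 1 and 24 h. What part the ratios and the markers have in the decline of the chloroplast genes was not tested.

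In roots the same genes changed little. At 24 h 6 of 26 were called lower and 0 higher by limma (9 lower and 0 higher at an unadjusted p under 0.05), a share near the 23.8% of all probe sets called lower, while 17.0% were called higher. The median change was -0.27, against -0.08 over all probe sets, and both 24 h arrays were below both 0.5 h arrays in 16 genes, against 42.8% of all probe sets. Counts at 6 and 12 h were 8 and 5, where 19.5% and 21.9% of all probe sets were called lower. At 1 h and at 3 h limma called 0 genes, where 0.172% and 13.7% of probe sets were called lower. At an unadjusted limma p under 0.05, 6 genes were lower at 1 h, and 6 were lower and 1 higher at 3 h. Setting each time against the one before, also added later, limma called 0 genes in all 4 steps after 1 h. At an unadjusted p under 0.05, 0 genes were lower and 2 higher from 1 to 3 h, and 3 were lower and 0 higher from 3 to 6 h. From 6 to 12 h 2 were lower and 6 higher, and from 12 to 24 h 1 was lower and 0 higher. The probe sets called lower in these steps were 5.15%, 0.0654%, 0.0119% and 0.607% of all.

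The root counts moved when an array was left out, and such a fit has 1 array in a group. A call can then be lost without a smaller change. Without 1 of the arrays in turn, the median change of the 26 genes was -0.39 to -0.27 at 6 h. It was -0.17 to -0.09 at 12 h and -0.34 to -0.17 at 24 h. Without 1 of the arrays in turn, 2 to 4 genes were called at 6 h, 2 to 6 at 12 h and 3 to 4 at 24 h, all lower except that without the second 12 h array 4 were lower and 2 higher at 12 h. At 24 h 3 genes remained without either 0.5 h array or without the second 24 h array. Over the alternatives, 4 to 9 genes were called at 24 h, all lower.

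Of the 6 genes called in roots at 24 h 3 lie side by side on the genome: rps2, rpoC2 and rpoC1. Signals of rpoC2 were 88.1 and 108 at 24 h, against 206 and 216 at 0.5 h, which left 46.4% of the mean and made it the only gene of the 26 that fell at least 2-fold in roots (-1.06 ± 0.21 SE; limma, adjusted p = 6.5e-04). For rps2 the arrays read 215 and 180 at 24 h, against 349 and 309 at 0.5 h (-0.72 ± 0.17; adjusted p = 0.00292), and for rpoC1 170 and 162 against 257 and 268 (-0.64 ± 0.16; adjusted p = 0.0044). The groups were apart in each. By contrast rpoB, the gene after rpoC1, had 67.6 and 65.5 at 24 h against 70.3 and 62.4 at 0.5 h, a change of 0.01 ± 0.19.

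The other root calls at 24 h were smaller or less steady. For rps15 the arrays read 54.7 and 43.4 at 24 h, against 90.3 and 85.8 at 0.5 h (-0.76 ± 0.24; limma, adjusted p = 0.0191), a call lost without either 0.5 h array or without the second 24 h array. For rpl14 (-0.52 ± 0.20; adjusted p = 0.0418) and rpl16 (-0.41 ± 0.14; adjusted p = 0.0276) the call was lost whenever 1 array was left out, and with arrays centred on their medians (adjusted p = 0.15 and 0.11); that of rpl14 was also lost with no filter (adjusted p = 0.054) and with no variance trend (adjusted p = 0.052). Of the 7 genes with other roles, none was called in roots at 24 h by limma or had an unadjusted p under 0.05, and their changes lay between -0.29 for matK and 0.07 for clpP.

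Roots held less signal from these genes than shoots throughout. Over the mean of the 6 times 26 of 26 were lower in roots, against 29.1% of all probe sets called lower, with a median difference of -2.01 where the median of all probe sets was 0.25. The difference was at least 2-fold in 25 genes. In 25 genes all 12 root arrays lay below all 12 shoot arrays, against 11.3% of all probe sets. Arrays centred on their medians gave the same 26 calls with a median of -2.22; over all probe sets that scaling gave 6395 lower and 7185 higher calls, against 4893 and 9248 with the deposited scaling.

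The size of the tissue difference varied between genes. It was largest for ccsA, whose signals ran from 179 through a median of 253 to 302 in roots and from 1227 through 2038 to 2580 in shoots, a difference of -2.90 ± 0.07 (SE; limma, adjusted p = 5.5e-17). Close to it were cemA at -2.88, rpl33 at -2.87 and rps4 at -2.76. It was smallest for rps14, with 46.0 to 104 in roots (median 78.1) against 85.7 to 162 in shoots (median 113), which overlapped (-0.59 ± 0.11; adjusted p = 5.3e-05). The next smallest were rpoA at -1.43 and rps3 at -1.46. Among classes, the medians were -2.48 for the genes with other roles, -2.00 for the polymerase, -1.99 for the large subunit and -1.88 for the small one.

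The gap between the tissues was smaller at the later times. Comparisons at single times, added later, called 26 genes lower in roots at each time up to 6 h and 25 at 12 and 24 h, against 22.5%, 23.3%, 23.5%, 23.1%, 23.4% and 22.2% of all probe sets over the 6 times. The median difference was -2.32, -2.62, -2.16, -1.92, -1.72 and -1.56 at 0.5, 1, 3, 6, 12 and 24 h. Over all probe sets it stayed between 0.17 and 0.32. The gene that was not called at the last times was rps14, at -0.31 at 12 h and -0.23 at 24 h.

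**Figure D3:**
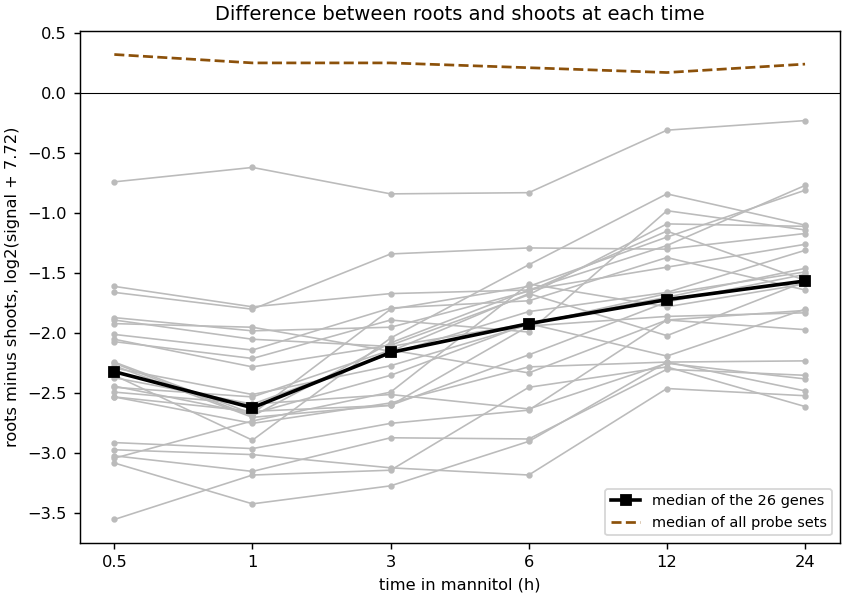
Roots minus shoots, in log2(signal + 7.72), at each time in mannitol (h, evenly spaced); grey lines are the 26 genes, the black line their median and the dashed line the median of all 16814 probe sets. The black line moves to -1.56 at 24 h, against -2.32 at 0.5 h, while the dashed line stays above 0.

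The difference between the tissues in the 24 h change was tested directly. It passed in 13 of 26 genes, in each with the root change above the shoot change, against 18.0% of all probe sets called in that direction and a median over all of -0.02. The median of the 26 genes was 0.68. The largest differences were those of rps18 (1.45 ± 0.26 SE; limma, adjusted p = 3.3e-04), rps16 (1.43 ± 0.22; adjusted p = 8.5e-05) and rpoB (1.25 ± 0.27; adjusted p = 0.00149). These probe sets were weak in roots. At 0.5 h their root means were 96.1, 61.9 and 66.4, where the median signal was 48.3, against 843, 322 and 369 in shoots. What part the weak root signals have in these differences was not tested. For rps18 the root arrays read 90.9 and 77.0 at 24 h against 89.3 and 103 at 0.5 h, a change of -0.18, where shoots changed by -1.63. By class, the difference passed in 6 of 7 large-subunit genes, 5 of 8 small-subunit genes, 1 of 4 polymerase genes and 1 of 7 others, the last being ycf3 (1.1).

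The genes called lower in roots at 24 h were all called lower in shoots too, as were 24 of all 26 genes. Among the genes called in roots, the difference between tissues did not pass in 3, the neighbours rps2, rpoC2 and rpoC1. It was 0.64 ± 0.29 for rpoC2 (limma, adjusted p = 0.0994), 0.48 ± 0.23 for rpoC1 (adjusted p = 0.113) and 0.30 ± 0.24 for rps2 (adjusted p = 0.356). It passed in the others, rps15 at 1.0, rpl16 at 0.93 and rpl14 at 0.76, of which rpl16 and rpl14 are also neighbours. Across the 26 genes the 24 h change in roots and that in shoots had a Spearman's rho of 0.59 and a Pearson's r of 0.63, as a description of genes that lie on 1 genome and partly in shared transcripts.

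The photosynthesis genes of the same genome gave other values, shown for comparison without a test between the groups of genes. In shoots at 24 h 24 of 26 genes described here were called lower with a median of -1.07, beside 18 of 43 photosynthesis genes with a median of -0.41. In roots at 24 h 0 of 26 were called higher by limma, beside 10 of 43 photosynthesis genes, which had a median of 0.14 and 0 called lower (2 lower at an unadjusted p under 0.05). Of all probe sets 17.0% were called higher and 23.8% lower in roots, and 33.2% lower in shoots. Among the 10 photosynthesis genes called higher in roots were psbZ at 0.72 and psbM at 0.66, subunits of photosystem II. All 6 nuclear markers of green tissue were also higher in roots at 24 h, with a summed signal of 735 to 964 against 308 to 319 at 0.5 h, and what part that has in the root values was not tested. Between tissues the median was -2.01 for the genes described here and -2.66 for the photosynthesis genes, all 43 of which were lower in roots.

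Mitochondrial genes, taken by symbol, served as a second organelle genome. Some of them have several probe sets, nad1 the most, so counts of probe sets are not counts of mitochondrial genes. In shoots at 24 h 2 of their 19 tested probe sets were called lower and 1 higher, with a median of -0.22. The shares of all probe sets were 33.2% and 25.4%. The lower calls of mitochondrial probe sets came earlier, with 11 at 3 h and 12 at 6 h, against 18.7% and 25.4% of all probe sets. Their median was -0.56 at both times, where the chloroplast genes described here had medians of -0.20 and -0.57. In roots at 24 h limma called 0 mitochondrial probe sets, with 0 at an unadjusted p under 0.05. There 23.8% of all probe sets were called lower and 17.0% higher.

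The nuclear genome supplies the other proteins of the chloroplast ribosome. Of 39 such genes listed 10 were named on the array. All 10 fell in shoots by 24 h, with a median of -2.21, against 33.2% of all probe sets called lower. The largest change among them was that of AT1G29070, with a mean signal of 335 at 24 h against 2134 at 0.5 h (-2.64 ± 0.12 SE; limma, adjusted p = 1.9e-11). Next were AT5G24490 at -2.39 and AT1G64510 at -2.29, and the smallest was AT5G65220 at -1.30, close to rpl36 and rpl16 from the chloroplast. In roots 4 of the 10 fell by 24 h, with a median of -0.18, against 23.8% of all probe sets called lower. The difference of the change between tissues passed in all 10, with the root change above the shoot change, against 18.0% of all probe sets in that direction.

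Other nuclear partners were thinly covered. Of 18 genes listed for the Clp protease and the carboxylase 5 were named, all of the protease. At 24 h in shoots 3 of these fell, CLPP4 most with -0.77, and 2 rose, with AT1G09130, a subunit of the same core without proteolytic activity, at 0.82. Their chloroplast partner clpP was at -0.30. The shares of all probe sets called lower and higher were 33.2% and 25.4%. Of 22 genes listed for transcription only AT5G15700, a phage-type RNA polymerase that serves both organelles, was named. Its mean signal in shoots was 22.4 at 24 h against 8.58 at 0.5 h, near the floor of the array, and its change was 0.89 ± 0.30 (limma, adjusted p = 0.017). Of 7 genes listed for RNA processing and decay 0 were named.

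**Figure D4:**
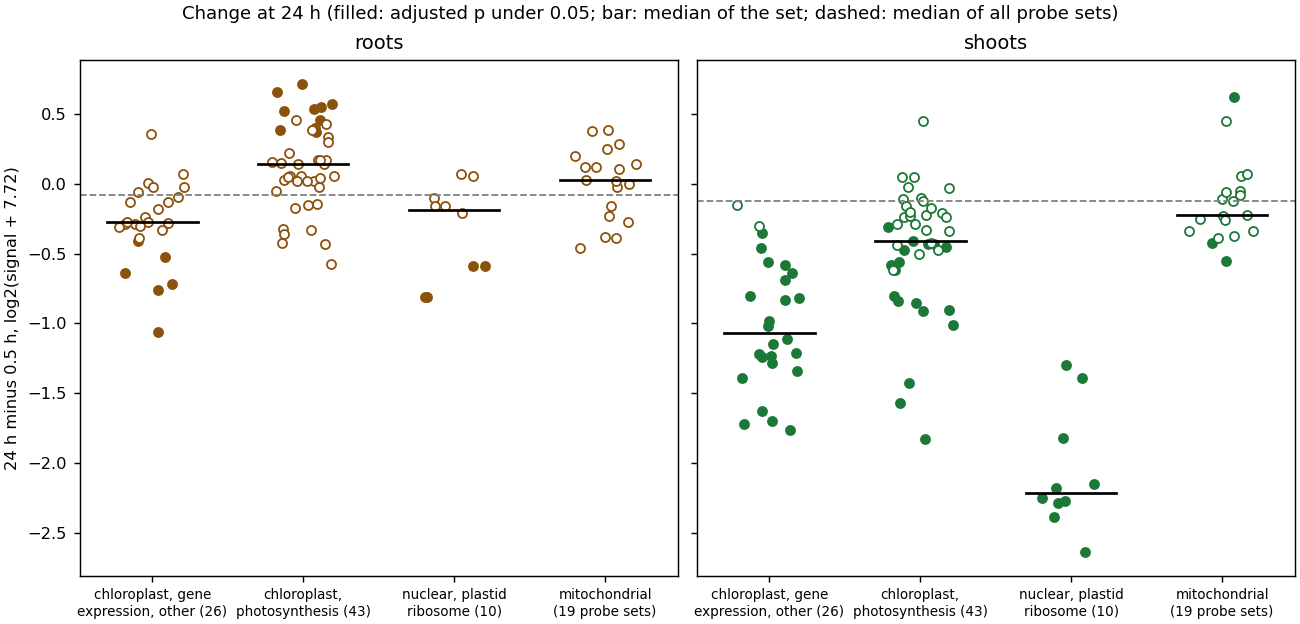
Change at 24 h from 0.5 h, in log2(signal + 7.72), in roots and shoots for the 26 chloroplast genes of gene expression and other roles, the 43 chloroplast genes of photosynthesis, 10 nuclear genes for plastid ribosomal proteins and 19 mitochondrial probe sets; each point is a probe set, filled where the adjusted p is under 0.05, bars are medians and the dashed line is the median of all probe sets. In shoots the medians are -1.07, -0.41, -2.21 and -0.22.

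Changes in shoots at 24 h were also followed along the chloroplast gene order, taken from a published gene table. Over 31 pairs of next neighbours with at least 1 of the 26 genes in them, the median absolute difference of the change was 0.41, against 0.602 over all 1443 pairs with at least 1 of them. Pairs share genes and transcripts, so these medians are a description. In neighbouring pairs both genes were more often among the 26 than in all pairs, and this was not adjusted for. Some runs of similar values, picked after the values were seen, are given here. They were rpl14, rpl16 and rps3 at -1.28, -1.34 and -1.15, and rpl22 and rps19 at -0.83 and -0.82. Within rpl33, rps18 and rpl20, at -1.21, -1.63 and -1.22, the steps of 0.42 and 0.41 were near the median of neighbours. Similar values also crossed functions in some places. The gene rps15 at -1.76 lies beside ndhH, a subunit of the NADH dehydrogenase-like complex, at -1.83. The gene rps14 at -0.15 lies beside psaB, a core protein of photosystem I, at 0.05. Likewise psaI, ycf4 and cemA were at -0.44, -0.35 and -0.46.

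Elsewhere neighbours differed. The change was -1.23 for ycf3 beside -0.12 for psaA, the other core protein of photosystem I. It was -0.98 for matK beside 0.45 for psbA, a reaction centre protein of photosystem II. Between rpoB at -1.24 and petN, a subunit of the cytochrome complex, at -0.03 the absolute difference was 1.22, and between rps16 at -1.72 and psbK, of photosystem II, at -0.31 it was 1.41.

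**Figure D5:**
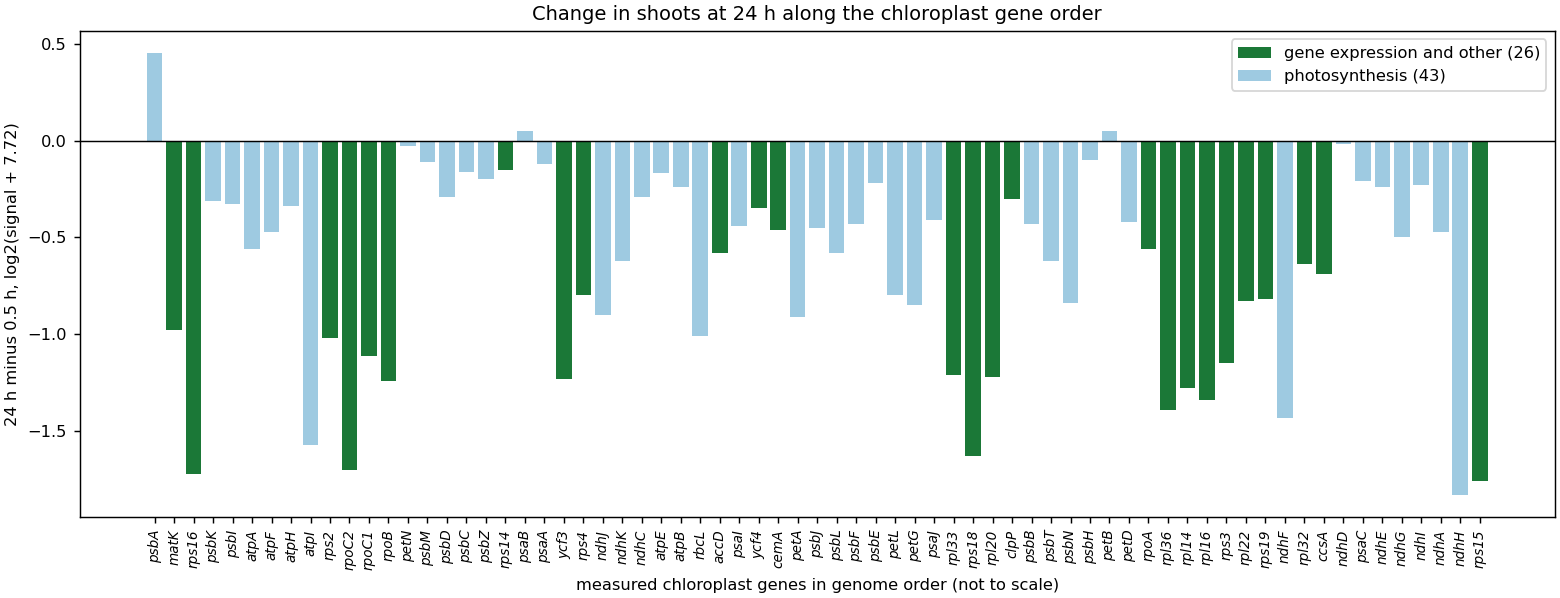
Change in shoots at 24 h from 0.5 h, in log2(signal + 7.72), for the 69 measured chloroplast genes in genome order (not to scale); dark bars are the 26 genes of gene expression and other roles, light bars the 43 genes of photosynthesis. The dark bars from rpl36 to rps3 lie between -1.39 and -1.15, and rps14 lies among light bars near 0.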

How the data were processed

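Per the submitters' processing notes the deposited values are MAS5 signals, linear intensity per probe set. No source used here names the MAS5 version or scaling target; trimmed means of the arrays (2% off each end) were 100.007 to 100.01. After 64 of 22810 probe sets were dropped as controls, 7.72 (the 20th percentile of signals) was added and log2 taken. A probe set was tested if it exceeded the 40th percentile of its own array on 2 or more of 24 arrays, which held for 16814 and failed for 5932. Limma 3.58.1 (R 4.3.3) estimated 12 group means with a variance trend, on 12 residual and 5.28 prior degrees of freedom. Benjamini-Hochberg adjustment ran over the tested probe sets per comparison, and an adjusted p under 0.05 was called. The fit was tested on simulated data.

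The platform annotation named 1 gene for 13513 probe sets, several for 503 and none for 8730. The 26 genes matched the TAIR10.1 gene table, which was used for names and neighbours only. Any of the 26 genes could be named; array values are given for the largest and smallest called change of each class, and for others chosen after their values were seen. Genes and lists were chosen with earlier results of these data known. The planned mitochondrial locus tags matched no probe set, so genes whose symbols start with nad, cox, ccb or matR were taken (22 probe sets, 19 tested, 15 genes). Alternatives were quantile normalization, centring on medians, other pseudocounts and filters, each tissue alone, no variance trend, the replicate number as a block, and leaving out each array.

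Replicate numbers were not used as pairs in the main fit. Over 66 pairs of groups, the correlation of deviations ran between -0.165 and 0.348, with a median of 0.00696 and 13 over 0.1. A small median does not show that replicates were unpaired in every group.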

Additional observations from a re-analysis of the deposited data

Results flagged for a closer look

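The 24 h change differed between roots and shoots, by a limma test of the difference itself, in 13 of the 26 genes. The root change lay above the shoot change by 1.45 for rps18, 1.43 for rps16, 1.25 for rpoB, 1.1 for ycf3, 1.06 for rpl36 and 1.0 for rps15. It lay above by 0.94 for rpl20, 0.94 for rpl33, 0.93 for rpl16, 0.84 for rps3, 0.81 for rpl22, 0.76 for rpl14 and 0.66 for rps4, all in log2. Over the alternatives 10 of the 13 kept their call under each, and 9 kept it without each array in turn. The calls lost under an alternative were those of rps4, rpl14 and rps15. Without single arrays those of rps4, rpl14, rps15 and rpl20 were lost.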

How the results depend on the processing

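The tissue difference kept all 26 calls under each alternative and without each array, and the 24 h decline in shoots kept 20 to 25 calls under the alternatives and 20 to 23 without single arrays; 20 of the 24 genes kept their call under each alternative, and 20 without each array. Without single arrays the counts were 2 to 4 in shoots at 3 h, 11 to 17 at 6 h, and in roots 0 to 4 at 3 h, 2 to 4 at 6 h, 2 to 6 at 12 h (the 6 being 4 lower and 2 higher) and 3 to 4 at 24 h. In roots at 3 h, where 0 genes were called, quantile normalization gave 3 lower, centring on medians 1 higher and the replicate block 2 lower. In roots at 6 h, 8 became 2 with centring on medians, 4 with no filter and 5 with no variance trend. In roots at 12 h, 5 became 3 with centring on medians, 2 lower and 1 higher. The causes were not tested. The replicate block gave 24 genes in shoots and 6 in roots at 24 h, 26 between tissues and 14 for the difference of changes. The shoot change of rps14 at 24 h turned to 0.04 with centring on medians and ranged from -0.44 to 0.14 without single arrays, positive only without the first 0.5 h array. Centring on medians moved the median of all probe sets to 0.06, against -0.12, in shoots at 24 h, and to 0.05, against -0.08, in roots. Centred so, all probe sets had 2840 lower and 3772 higher calls in roots at 24 h, against 4002 and 2866. Over single genes, 1042 of 1104 values under alternatives kept direction and side of the threshold, 60 lost it, 1 gained it and 1 reversed; of 1080 without an array, 981 kept it, 98 lost it and 1 reversed. With 2 arrays a group, small changes of weak probe sets could not be told from replicate spread.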

Other observations

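A further 7 probe sets each name both copies of a chloroplast gene outside photosynthesis that lies in the inverted repeat, so they name no single gene and were left out of the counts. In shoots at 24 h 3 of them were called lower than at 0.5 h and 1 higher, against 33.2% and 25.4% of all probe sets. Their median was -0.27, with a range from -1.30 to 0.54. In roots at 24 h 1 was called lower, against 23.8% of all probe sets, with a median of 0.03. All 7 were called lower in roots than in shoots over the mean of the times, against 29.1% of all probe sets. Their median was -1.57, with a range from -2.97 to -0.92.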
